A study of Rattus norvegicus with 8 samples.

Results

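The genes described here carry glucose into the cells of the brain and break it down to pyruvate and lactate. Their probe sets were found by gene symbol. The genes are the glucose transporters Slc2a1 and Slc2a3, the hexokinase Hk1, the aldolases Aldoa and Aldoc, the phosphoglycerate kinase Pgk1, the enolase Eno2, the pyruvate kinase Pkm and the lactate dehydrogenase subunits Ldha and Ldhb. Of these 10 genes, 8 had at least 1 probe set that the platform's annotation table assigned to that gene alone. They had 15 probe sets, of 8740 on the array without its controls. No probe set was named for Eno2 in that table, and the probe set of Ldha was shared with a related gene, Ldhal1. Of the 15 probe sets, 14 lay above a floor of 9.1 intensity units on at least 2 of the 8 arrays and were tested among 7770. The exception was M31788_at of Pgk1, which read 4.5 to 9.7 and lay above the floor on 1 array. The other 14 lay above the floor on all 8 arrays.

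Total RNA of whole rat brain was hybridised to 8 oligonucleotide arrays, 1 per sample. All rats were intubated. The control group (3 samples) breathed isoflurane, a volatile anaesthetic, for 3 min, and the exposed groups received 2% isoflurane for 1 hr (2 samples) or 2 hr (3 samples). The controls were thus briefly anaesthetised too, and the labels mention saline perfusion for them alone, so perfusion and exposure cannot be told apart if the exposed rats were not perfused. The sources used here do not give strain, age or sex. No label ties a sample to an animal, so p-values reflect variation from sample to sample, which may be technical.

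In the brain glucose is the main fuel. Slc2a1 encodes GLUT1, the transporter of the blood-brain barrier endothelium and of astrocytes, and Slc2a3 encodes GLUT3, the transporter of neurons. Inside the cell hexokinase traps glucose by phosphorylation, aldolase splits the sugar into a pair of smaller molecules, phosphoglycerate kinase and pyruvate kinase make ATP, and lactate dehydrogenase interconverts pyruvate and lactate. In whole tissue, fewer cells of a type and less RNA per cell cannot be told apart. Of the fixed marker lists, 10 of 12 neuron, 8 of 10 astrocyte, 6 of 8 oligodendrocyte and 8 of 12 endothelial markers were measured, and every listed marker with a named probe set lay above the floor on at least 2 arrays.

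The arrays had been scaled by the authors to nearly equal trimmed means, but they differed in other ways that run across the groups. The highest intensity was 23009.4 to 37711.8 on control replicate 3, 1 hr replicate 1 and 2 hr replicate 3, and 3504.2 to 12444.6 on the other 5. The 5S ribosomal RNA control gave 12.9 to 23.7 on control replicates 1 and 2 and 2 hr replicate 1, and 70.4 to 141.7 on the other 5. Control replicate 3 alone gave the lowest reading for 6 of the 14 probe sets described here, tied for the lowest with 2 hr replicate 3 in D13962_at, and gave the highest for 0. Over all 7770 it alone gave the lowest for 20.01% and the highest for 19.3%. The part of these differences in the results below was not tested beyond the values given.

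The hypoxia-inducible factors, which switch on many glycolytic genes, bind a DNA core of ACGTG or GCGTG. The RefSeq table of assembly GRCr8 held 11 promoter windows of 300 bases for 8 of the 10 genes, each from 250 bases before to 50 after a gene start. The core was found on either strand in 7 of the 11 windows, against 41.6% of 33469 windows of the whole table. Matches on both strands were counted, overlapping ones separately. Slc2a1 is shown because its groups stood furthest apart, and Aldoc and Pkm because both read low on the same exposed array. Capitals mark the core, written as CACGT or CACGC where it lies on the opposite strand.
Slc2a1, chr5:138002272-138002571, plus strand, 4 matches: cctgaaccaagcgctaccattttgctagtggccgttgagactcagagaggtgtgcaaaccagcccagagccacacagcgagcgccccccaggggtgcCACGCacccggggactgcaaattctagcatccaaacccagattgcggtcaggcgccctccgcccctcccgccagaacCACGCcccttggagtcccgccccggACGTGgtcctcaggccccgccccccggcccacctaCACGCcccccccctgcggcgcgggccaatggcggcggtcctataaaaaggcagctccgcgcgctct
Aldoc, chr10:63715294-63715593, plus strand, 3 matches: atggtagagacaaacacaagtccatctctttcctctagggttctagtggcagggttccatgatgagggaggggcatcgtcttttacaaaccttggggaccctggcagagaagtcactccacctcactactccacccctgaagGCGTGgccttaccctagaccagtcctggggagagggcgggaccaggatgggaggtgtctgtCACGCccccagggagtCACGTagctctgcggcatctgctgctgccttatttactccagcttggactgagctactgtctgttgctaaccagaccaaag
Pkm, chr8:68953385-68953684, plus strand, 0 matches: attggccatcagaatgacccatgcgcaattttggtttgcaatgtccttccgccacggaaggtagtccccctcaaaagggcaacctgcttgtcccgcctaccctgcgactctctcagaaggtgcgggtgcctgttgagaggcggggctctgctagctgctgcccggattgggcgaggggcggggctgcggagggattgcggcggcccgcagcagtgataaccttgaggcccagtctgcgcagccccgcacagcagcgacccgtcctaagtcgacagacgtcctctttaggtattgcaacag
A match describes these letters only and does not show that a factor binds there. The window of Ldha held 6 matches and those of Eno2 and Ldhb 1 each. Hk1 and Aldoa had several windows, each with 0 or 1 match, and Slc2a3 and Pgk1 had none in the table. Of all 33469 windows, 19.2% held 2 or more matches.

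None of the 8 genes passed the test in any comparison. By the brightest probe set, 6 of the 8 genes had a log2 change above 0 at 2 hr against control, as did 52.1% of all 7770 probe sets. The median log2 change of the 8 was 0.26, against a median of 0.019 over the brightest probe sets of 4367 genes. With limma, 0 of the 14 probe sets had an adjusted p under 0.05, and so did 0% of all 7770. At an unadjusted p under 0.05 there was 1 of the 14, Slc2a1, and 1.79% of all 7770. Under 11 of 21 alternatives the unadjusted p of Slc2a1 was not under 0.05, among them median centring, no filter and no intensity trend, and it ran from 0.00984 to 0.119. Every 2 hr array lay above every control for the same 1 of the 14 and for 2.9% of all. Without control replicate 3 the median of the 8 genes was -0.091. At 1 hr against control, 5 of the 8 genes had a change above 0, as did 55.8% of all probe sets, and 0% passed. Their median was 0.20, and -0.23 without control replicate 3. At an unadjusted p under 0.05 there were 0 of the 14 and 2.68% of all. At 2 hr against 1 hr, 3 of the 8 had a change above 0, against 47.2% of all, and 0% passed. Their median was -0.041, but 0.25 without 2 hr replicate 2, 0.15 without 1 hr replicate 2, 0.077 with quantile normalization and 0.18 with the replicate block. At an unadjusted p under 0.05 there were 0 of the 14 and 2.77% of all. These comparisons share samples.

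**Figure D1:**
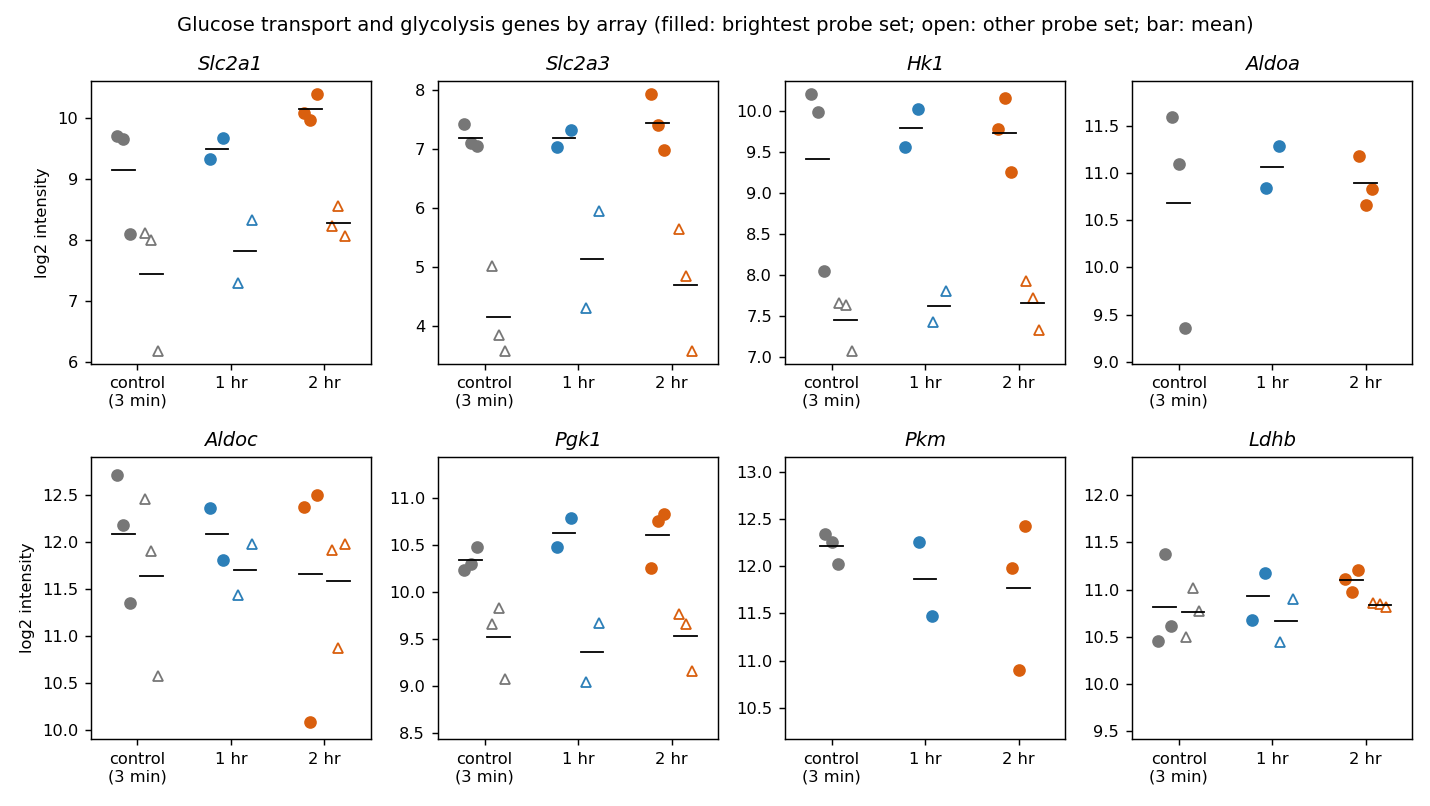
Log2 intensity of the 8 genes by group, with 3 control, 2 1 hr and 3 2 hr arrays; each point is an array, filled for the brightest probe set and open for another probe set of the gene, and bars are group means. The brightest Slc2a1 probe set read 996.8 to 1340.2 at 2 hr, above the control values of 273.9 to 827.6, and 1 control array lay far below the others for Slc2a1, Hk1 and Aldoa.

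The GLUT1 gene Slc2a1 was the member whose 2 hr and control arrays did not overlap in its brightest probe set. S68135_s_at read 827.6, 805.2 and 273.9 in the controls, 638.9 and 808.7 after 1 hr, and 1080.1, 996.8 and 1340.2 after 2 hr. All 3 arrays of the 2 hr group lay above all others, whereas the 1 hr arrays lay within the control range. The mean log2 intensity was 10.14 ± 0.22 at 2 hr (SD, n = 3) and 9.15 ± 0.91 in the controls (SD, n = 3), a 1.99-fold difference with a log2 change of 0.99 (SE 0.428, 95% interval 0.036 to 1.95). It did not pass (limma, adjusted p = 1). Every 2 hr array also lay above both 1 hr arrays, as for 5.98% of all probe sets, and the log2 change was 0.65 (95% interval -0.42 to 1.72), and at 1 hr against control it was 0.34 (95% interval -0.73 to 1.41).

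On control replicate 3 the brightest Slc2a1 probe set read 33.1% of the median of the other arrays. Without that array the log2 change of Slc2a1 at 2 hr was 0.47. Within the 3 arrays of highest maximum the change was 2.29 (1 against 1), and within the other 5 it was 0.35 (2 against 2). It was 0.40 within the arrays of low 5S reading (1 against 2) and 2.08 within the others (2 against 1).

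The second Slc2a1 probe set, M13979_at, read 277.7, 256.1 and 72.7 in the controls, 157.5 and 319.6 after 1 hr, and 298.8, 376.6 and 268.7 after 2 hr. The groups overlapped here, since 2 hr replicate 3 lay between the controls. Its log2 change at 2 hr was 0.85 (95% interval -0.28 to 1.98). The endothelial markers, of which Slc2a1 was not one, had a median log2 change of -0.17 at 2 hr over 8 genes, with 3 higher and 5 lower. Vwf, Kdr, Abcb1a and Tfrc of these read below the floor on at least 1 array. The others, Slco1a4, Flt1, Slc7a5 and Pecam1, were at -0.51, -0.18, 0.16 and 0.33. Pecam1 was the 1 of the 8 whose 2 hr arrays all lay above the controls, as for 2.9% of all probe sets. It read 54.9, 52.4 and 59 at 2 hr, against 44.2, 46.9 and 41.6 in the controls. The summed intensity of the endothelial markers was 599.5 to 715.5 at 2 hr, against 592.4 to 897.9 in the controls. The astrocyte markers had a median of 0.17 and summed to 7039.4 to 25192.7 at 2 hr, against 16986.4 to 22226.2 in the controls. Much of the range of that sum came from 1 bright gene, Apoe. It read 7962.1, 979.6 and 17436.3 at 2 hr, against 10069.6, 8104.7 and 14685.7 in the controls. Of the 7 markers of the meninges, the membranes around the brain, 6 were higher and 1 lower at 2 hr, with a median of 0.49, and 2 did not overlap. These 2, Col1a2 and Aldh1a2, also read low on control replicate 3, at 59.8 and 9.6. The meningeal sum was 3829.4 to 5771.7 at 2 hr, against 3565.3 to 4593.4 in the controls. The median log2 change was 0.18 for microglia, 0.16 for choroid plexus, -0.043 for oligodendrocyte, -0.13 for pituitary and -0.23 for blood markers. Among these lists Itgam, a microglia marker, alone did not overlap at 2 hr. It read 16.7, 11.3 and 19.2 at 2 hr, against 8.8, 10.6 and 3.6 in the controls, near or below the floor. The part of these cells in the Slc2a1 difference was not tested.

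The GLUT3 gene Slc2a3 differed little between the groups. D13962_g_at read 171.8, 137.4 and 133.7 in the controls, 132.1 and 161.2 after 1 hr, and 245.8, 170 and 126.8 after 2 hr. The highest and the lowest of the 8 readings were both 2 hr arrays. The log2 change was 0.25 at 2 hr (95% interval -0.43 to 0.93, limma adjusted p = 1) and -0.0075 at 1 hr. Without 2 hr replicate 1, the highest array, the 2 hr change was 0.0013. The dimmer probe set D13962_at read 12 to 62.1, near the floor at its lowest, with log2 changes of 0.54 at 2 hr and 0.98 at 1 hr. The neuron markers had a median log2 change of 0.0031 at 2 hr and summed to 8445.9 to 12661.4, against 7364 to 13879 in the controls. The 7364 was control replicate 3, the lowest neuron sum of the 8 arrays, and its endothelial sum of 592.4 was also the lowest. Its microglia and blood sums, 2997.9 and 721.7, were the highest. The part of this in the low readings of that array was not tested.

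Hk1 encodes the main brain hexokinase. Its brightest probe set rc_AI012593_at read 1178.9, 1009.3 and 264.9 in the controls, 754.9 and 1036.1 after 1 hr, and 879, 1138 and 609 after 2 hr. Every exposed array lay between the lowest and the highest control. The log2 change was 0.32 at 2 hr (95% interval -0.89 to 1.52) and 0.38 at 1 hr (limma, adjusted p = 1 for both). Without control replicate 3 these values were -0.36 and -0.30, on the other side of 0. U27319exon_at, the second probe set, read 134.4 on that array and 160.5 to 242.3 on the others, with log2 changes of 0.20 at 2 hr and 0.16 at 1 hr.

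The array also carries 3 control probe sets for Hk1, which were left out of the tests and match the 3' end, the middle and the 5' end of its transcript. On control replicate 3 they read 24.6%, 9.75% and 32.8% of the median of the other arrays. The low Hk1 reading of that array was therefore seen in 5 probe sets in all, the second tested one at 66.5%. Over all 7770 probe sets the same ratio had a median of 103%, and over the 416 probe sets with a mean of at least 1000 units it was 137%. Hk1 signal at the 3' end divided by that at the 5' end was 1.91 on control replicate 3 and 2.01 to 6.53 on the other arrays. The 6.53 was on control replicate 2, where the 5' probe set also read low. That probe set gave 32.4 there, 24.6 on control replicate 3 and 61.8 to 91.6 on the others.

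Aldoa, the ubiquitous aldolase, had the same low array. Its probe set rc_AA924326_s_at read 3107.5, 2185.3 and 655.4 in the controls, 1840.7 and 2495.5 after 1 hr, and 2326.3, 1624.8 and 1821 after 2 hr. The controls spanned the exposed arrays on both sides. The mean log2 intensity was 10.89 ± 0.26 at 2 hr (SD, n = 3) and 10.68 ± 1.18 in the controls (SD, n = 3). The log2 change of 0.21 at 2 hr (95% interval -1.03 to 1.45) was -0.45 without control replicate 3, and the change of 0.38 at 1 hr was -0.28.

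Aldoc, the aldolase of the brain, abundant in astrocytes, varied most among the members. M63656_s_at read 6713.3, 4644.6 and 2601.3 in the controls, 5234.9 and 3573.4 after 1 hr, and 5284.6, 1090.6 and 5794.5 after 2 hr. Both the controls and the 2 hr group held 1 array well below the others. Its residual SD of 0.977 on the log2 scale was at the 91.2th percentile of all probe sets tested. The log2 change was -0.43 at 2 hr (95% interval -2.03 to 1.18), and 0.35 without 2 hr replicate 2. X06984cds_s_at, the second probe set, read 1521.5 to 5609.1 in the controls, 2759.5 and 4013.6 after 1 hr and 1874.2 to 4014.4 after 2 hr, with a log2 change of -0.054 at 2 hr.

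**Figure D2:**
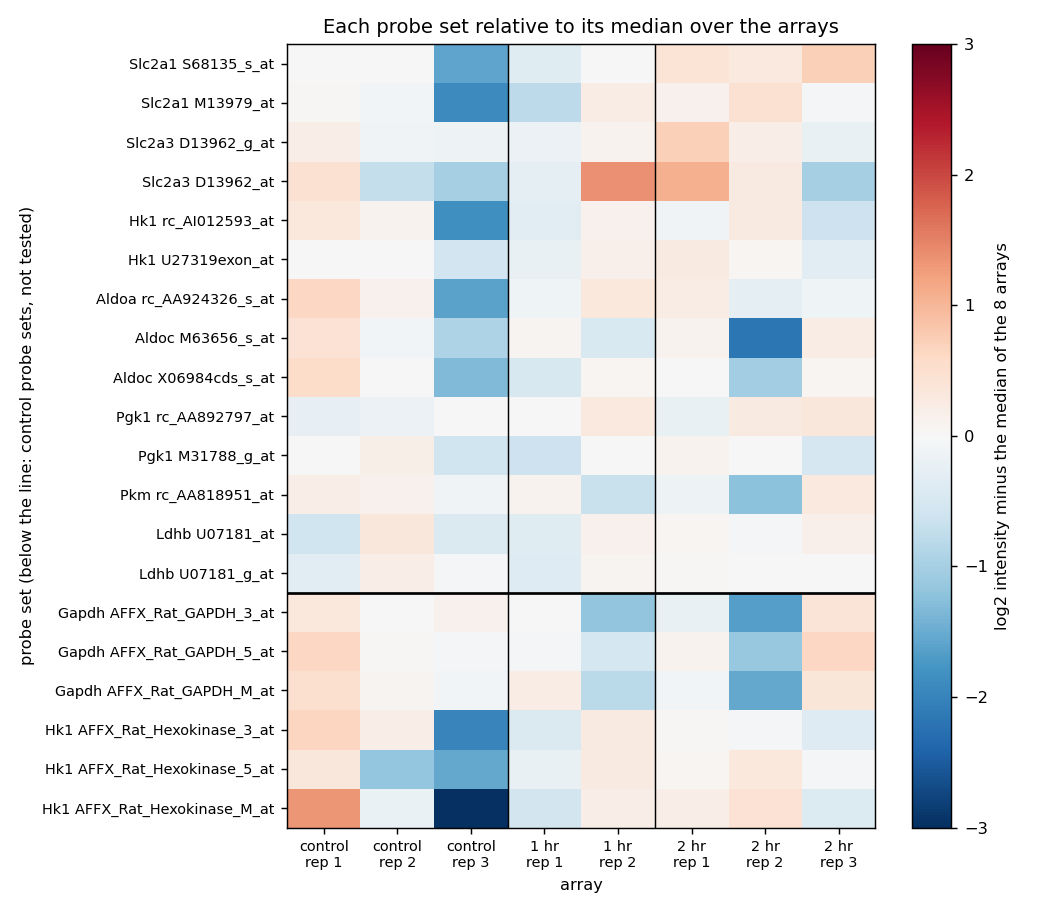
Log2 intensity of each probe set minus its median over the 8 arrays, for the 14 tested probe sets and, below the line, the control probe sets of Gapdh and Hk1; columns are arrays, and colours run from -3 (blue) to 3 (red), with values beyond that shown at the end of the scale. Control replicate 3 was low for Slc2a1, Hk1, Aldoa and Aldoc, and 2 hr replicate 2 for Aldoc, Pkm and Gapdh. Pkm and Gapdh were also low on 1 hr replicate 2.

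Pgk1, which makes the first ATP of glycolysis, was the member with the least spread. rc_AA892797_at read 1206.9, 1258.8 and 1427.3 in the controls, 1427.8 and 1762.3 after 1 hr, and 1221.3, 1721.6 and 1815.6 after 2 hr. Both 1 hr arrays lay above the controls, the nearer one at 1427.8 against 1427.3, while 2 hr replicate 1 lay among the controls. At 1 hr the log2 change was 0.29 (95% interval -0.50 to 1.09, limma adjusted p = 1), and non-overlap with the exposed group higher was found for 7.54% of all probe sets at 1 hr. At 2 hr the change was 0.27 (95% interval -0.44 to 0.99). The second tested probe set, M31788_g_at, did not follow it. It read 538.9 to 907.5 in the controls, 528.3 and 816.9 after 1 hr and 572.9 to 871.1 after 2 hr, with log2 changes of -0.16 at 1 hr and 0.0071 at 2 hr.

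Pkm, the pyruvate kinase of muscle and brain, read 5201, 4912.8 and 4172 in the controls, 4880.8 and 2840 after 1 hr, and 4042.9, 1911.8 and 5499.5 after 2 hr (rc_AA818951_at). The controls lay close together, whereas the exposed arrays ran from below to above them. The log2 change was -0.44 at 2 hr (95% interval -1.66 to 0.78) and -0.35 at 1 hr (95% interval -1.72 to 1.02), and neither passed (limma, adjusted p = 1). Without 2 hr replicate 2 the change at 2 hr was -0.0080, and without 1 hr replicate 2 the change at 1 hr was 0.042.

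The Pkm reading of 2 hr replicate 2 was 39.2% of the median of the other arrays, and the readings of the Aldoc probe sets were 20.8% and 48.5%. The 3 control probe sets of Gapdh, the enzyme between aldolase and phosphoglycerate kinase, read 31.6% to 44.7% on it. Slc2a1, Hk1 and the brighter Pgk1 probe set read 106% to 140% of that median on the same array. This array had the lowest maximum of all, 3504.2, and its 416 bright probe sets had a median ratio of 81.7%, against 105% over all probe sets. On 1 hr replicate 2 the Gapdh probe sets read 2790.5, 3156 and 3296.2, Pkm read 2840 and the maximum was 5080.7. Each of these was lower than on every other array but 2 hr replicate 2.

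Ldhb encodes the heart-type subunit of lactate dehydrogenase. U07181_at read 1399.3, 2663.4 and 1564.2 in the controls, 1638.5 and 2316.6 after 1 hr, and 2211.2, 2018.7 and 2361.2 after 2 hr. The 2 hr arrays lay within the control range and close together. The log2 change was 0.29 at 2 hr (95% interval -0.58 to 1.15) and 0.11 at 1 hr (limma, adjusted p = 1 for both). U07181_g_at, the second probe set, ranged from 1389.9 to 2074.2 over all arrays, with log2 changes of 0.072 at 2 hr and -0.094 at 1 hr. The probe set M54926_at, assigned to both Ldhal1 and Ldha, cannot be given to either gene. It read 1061.6, 1111.8 and 1694.9 in the controls, 1118.8 and 1036.7 after 1 hr, and 1244.5, 970.2 and 1409.3 after 2 hr, with a log2 change of -0.078 at 2 hr. On control replicate 3 it read 152% of the median of the other arrays, the highest of the 8.

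**Figure D3:**
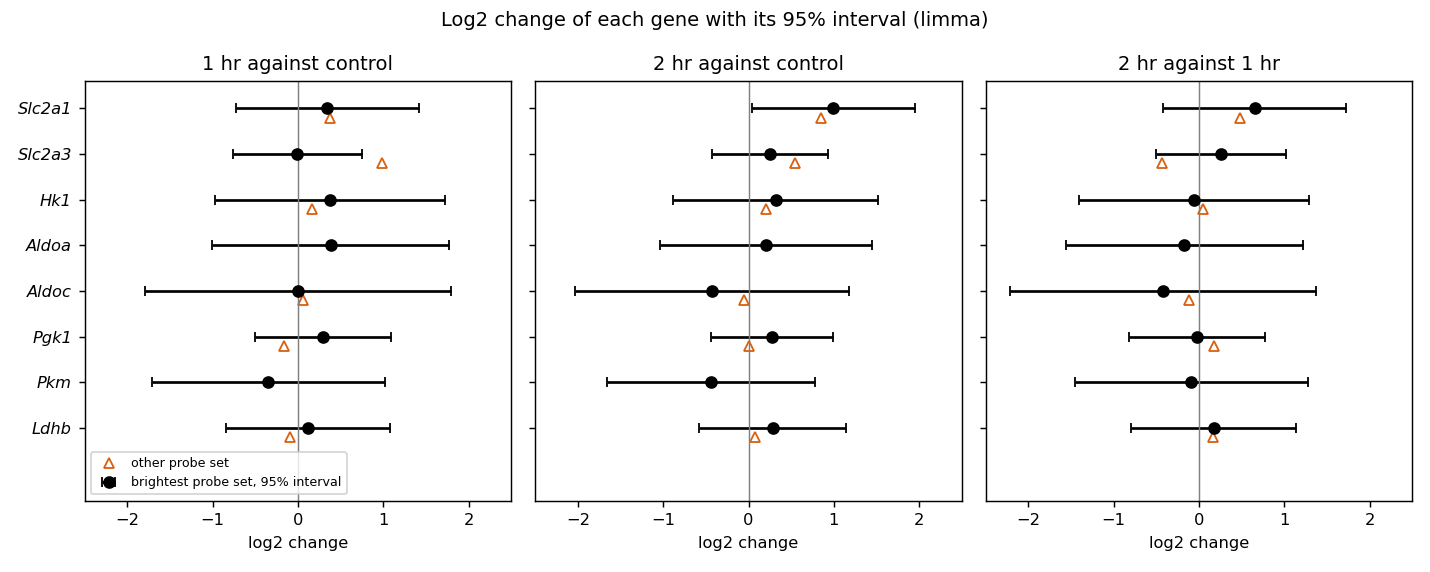
Log2 change of the brightest probe set of each gene with its 95% interval from limma (circles), and of other probe sets (triangles), for 1 hr against control, 2 hr against control and 2 hr against 1 hr. The interval of Slc2a1 at 2 hr ran from 0.036 to 1.95, and every other interval of the 3 panels included 0; this one too included 0 under 11 of 21 alternatives.

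The mean of the 1 hr and 2 hr groups was also set against the controls. Of the 8 genes 6 had a log2 change above 0, against 55.2% of all probe sets, with a median of 0.24 against 0.031 over 4367 genes, and 0% of probe sets passed in limma. Without control replicate 3 this median was -0.14. At an unadjusted p under 0.05 there were 0 of the 14 and 2.21% of all. Slc2a1 had a log2 change of 0.67 (95% interval -0.20 to 1.53) and Pkm one of -0.40. The exposed arrays overlapped the controls for all 14 probe sets, and lay wholly above them for 0.927% of all.

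Of 21 other genes of glucose transport and glycolysis, 11 were measured, and 0 passed in any comparison. At 2 hr 6 were higher and 4 lower, beside 52.1% higher of all probe sets. The median log2 change of the 11 was 0.021, and the remaining 1, Ldhc, was at the floor in both groups. Those of smallest unadjusted p were Pklr, the liver pyruvate kinase, at -0.50, Slc2a5, the fructose transporter, at 1.31, and Pgam1, the brain phosphoglycerate mutase, at -0.48. Slc2a5 read 86.9, 161.4 and 99 at 2 hr, against 107.2, 50.4 and 16.7 in the controls, which overlap, and its change was 0.60 without control replicate 3. Pgam1 read 1299.8 on 2 hr replicate 2 and 2929.1 to 3740 on the other arrays, and its change was -0.054 without 2 hr replicate 2. Pklr lay below the floor in every 2 hr sample and in 1 control.

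At 1 hr 7 of the 11 were higher and 4 lower, with a median of 0.054, and 55.8% of all probe sets were higher. Ldhc, the testis subunit of lactate dehydrogenase, read 17.1 and 20.4 at 1 hr, against 2.4, 1.5 and 6.8 in the controls, which lie below the floor. It was at least 2.05-fold higher at 1 hr, and every 2 hr sample was again below the floor. It passed the filter through the 1 hr arrays alone and all its other values are the floor itself, so nothing is read from its p. Pgam2, the muscle mutase, had a log2 change of 0.96 at 1 hr and -0.68 at 2 hr against 1 hr, with readings of 6.2 to 24.3 that straddle the floor. Pklr was at -0.48 at 1 hr, but at -0.028 with the floor at the 5th percentile. Slc2a5 was at 1.20 at 2 hr against 1 hr, and at 0.058 without 1 hr replicate 1. For the exposed groups together the values were 0.52 for Ldhc, -0.49 for Pklr and 0.62 for Pgam2, with a median of 0.071 over the 11 genes.

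Of 35 genes linked to glycolysis, which make or remove its regulators, move lactate, store glycogen or pass pyruvate on, 24 were measured and 0 passed. At 2 hr 10 were higher and 14 lower, with a median log2 change of -0.018, and 52.1% of all probe sets were higher. Pfkfb2, which makes an activator of phosphofructokinase, was at 1.26, and at 0.57 with the floor at the 40th percentile. It read 18.9, 45.1 and 63.8 at 2 hr, against 31.2, 10.2 and 12.4 in the controls. Pygm, the muscle glycogen phosphorylase, was at 0.94, and at 0.42 without control replicate 3, where it read 102.5 against 269.3 to 658.4 on the other arrays. Pc, the pyruvate carboxylase of astrocytes, was at 0.35, and at 0.16 without control replicate 3. Pc read 162.8, 181.5 and 157 at 2 hr, against 155.4, 144.3 and 100 in the controls. It was the 1 gene of the 24 whose 2 hr arrays all lay above the controls, beside 2.9% of all probe sets. At 1 hr 15 of the 24 were higher and 9 lower, with a median of 0.068, and 55.8% of all probe sets were higher. Pdk1, a kinase that shuts off pyruvate dehydrogenase, was at -0.75, Pfkfb1 at 0.51 and Pdhb, a pyruvate dehydrogenase subunit, at -0.62. Leaving out each array in turn, these ran from -1.18 to -0.32, 0.31 to 0.77 and -0.86 to -0.32. At 2 hr against 1 hr 11 of the 24 were higher and 13 lower, and 47.2% of all probe sets were higher. Pfkfb2 was at 1.78, Pfkfb1 at -0.56 and Gckr, the glucokinase regulator, at -1.04. Pfkfb2 read 13.3 and 7.3 at 1 hr, the second below the floor, and its change was 0.63 with the floor at the 40th percentile. Gckr read 40.3, 49.6 and 10.4 at 2 hr, against 62 and 51.4 at 1 hr, and its change was -0.34 without 2 hr replicate 3. For the exposed groups together 16 of the 24 were higher and 8 lower, and 55.2% of all probe sets were higher. Pygm was at 0.79, Pdk1 at -0.46 and Tkt, the transketolase, at 0.29. Leaving out each array, these ran from 0.27 to 1.11, -0.68 to -0.25 and 0.14 to 0.49.

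Likeness was measured as the Pearson correlation of log2 values over the 8 arrays, which share the array differences given above, and it is a description only. The 3 probe sets of other genes most like Slc2a1 were those of Cebpb (r = 0.975), Dhcr7 (r = 0.973) and Dpysl4 (r = 0.953). Those most like Hk1 were Mprip, Hsf1 and Hnrnpd, each at 0.991 to 0.992. Pkm was most like Ckb, the brain creatine kinase (r = 0.984), Gnas (r = 0.982) and Mbp (r = 0.965), and Aldoc most like Eef2 (r = 0.962), Rgs4 and Clu (r = 0.954 each). The nearest to Aldoa was Gabbr2 (r = 0.982), to Slc2a3 Canx (r = 0.942), to Pgk1 Eif3b (r = 0.935) and to Ldhb Iqgap2 (r = 0.950). None of the 8 genes had another of the 8 among its 3 nearest. The nearest were picked from all tested probe sets with a gene symbol, so this does not show whether the 8 vary together.

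**Figure D4:**
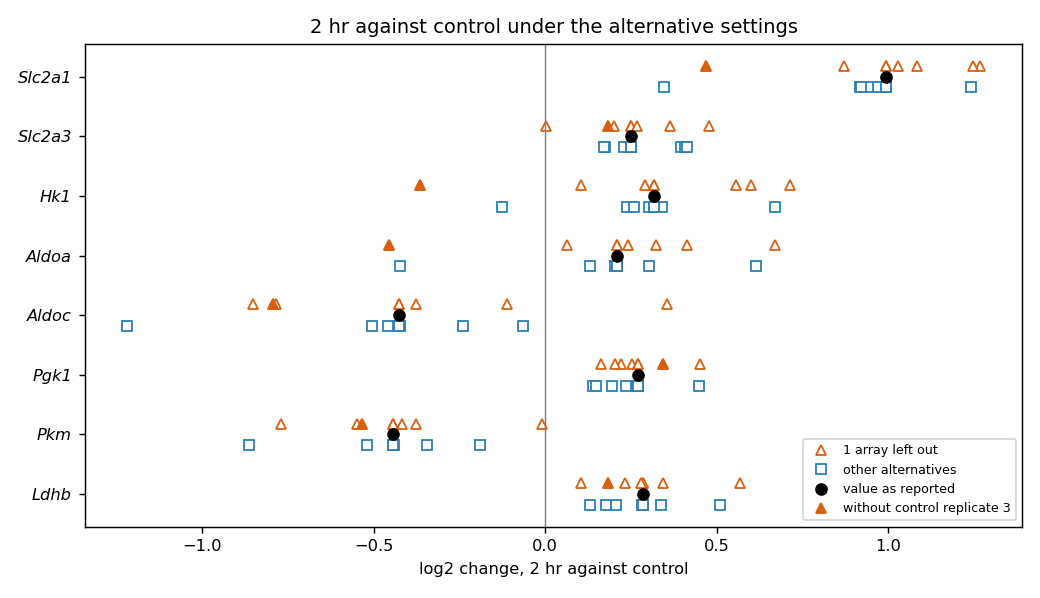
Log2 change at 2 hr against control for each gene as reported (black), with 1 array left out (triangles, filled without control replicate 3) and under the other alternatives (squares). Slc2a1 stayed between 0.35 and 1.27, while Hk1 and Aldoa lay on the other side of 0 without control replicate 3, at -0.36 and -0.45.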

How the data were processed

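The authors deposited linear intensities for 8799 probe sets on each array. The sources used here do not give the software or the scaling target. The 2% trimmed means lay between 150.17 and 150.32, and no further scaling was applied. The 59 control probe sets were left out. Readings under the 20th percentile, 9.1, were set to it before log2 was taken, which can shrink or enlarge changes of dim genes. Probe sets above it on at least 2 of 8 arrays were kept.

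Names came from the platform's annotation table: 7006 probe sets had 1 gene symbol, 308 several and 1426 none. The last include all 191 whose ID holds a number sign. Of the single symbols, 6985 were updated to RefSeq names of GRCr8.

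Limma 3.58.1 in R 4.3.3 fitted 1 mean per group on all 8 arrays (lmFit, contrasts.fit, eBayes with an intensity trend). P-values are two-sided, and Benjamini-Hochberg adjustment ran over 7770 probe sets with a threshold of 0.05. The fit was tested on simulated data drawn without differences between whole arrays, so that test does not cover the array differences described above. A gene's value is its brightest probe set. Of each pathway list, the 3 genes of smallest unadjusted p per comparison are named. The members, lists and array blocks were chosen with earlier results of these data known. No 2 arrays shared more than 70 identical values, so none is a copy of another, and all 8 were counted as separate samples. This does not show whether they came from different animals. The number of arrays limits the precision.

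Alternatives covered the normalization (quantile, median centring), the floor (5th or 40th percentile, or a pseudocount of 16 instead), the filter (none, or all 8 arrays), the trend, the mean of a gene's probe sets, blocks of array maximum, 5S reading or replicate number, and arrays left out.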

Additional observations from a re-analysis of the deposited data

How the results depend on the processing

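Over 21 alternatives, 672 values of the 8 genes were computed. In limma 0 of them passed, 617 kept the direction reported and 55 lay on the other side of 0. The count of probe sets passing stayed at 0 in all 4 comparisons under 20 alternatives, except without the filter, where 4 passed at 1 hr against control and 4 at 2 hr against 1 hr. Of the named genes Ldhc alone was among them, with all its control and 2 hr readings set to the floor, so nothing is read from that. The cause of the direction changes below was not tested. Dim genes are limited by the floor.

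All values below are log2 changes on the other side of 0 from the reported one. At 2 hr against control without the 3 arrays of highest maximum, Hk1 was at -0.13 and Aldoa at -0.42. At 1 hr against control, Aldoc was at 0.15 with quantile normalization, 0.029 with the mean of all probe sets and 0.72 with the 5S block. Slc2a3 was at 0.49 with the mean of all probe sets, 0.060 with the block of highest maximum, 0.31 with the 5S block and 0.069 without the 3 arrays of highest maximum. Without those 3 arrays Slc2a1 was at -0.014, Hk1 at -0.074 and Aldoa at -0.062. Ldhb was at -0.00053 with median centring. For the exposed groups together, Aldoc was at 0.33 with the 5S block, and Hk1 at -0.0997 and Aldoa at -0.24 without the 3 arrays. At 2 hr against 1 hr, Pgk1 was at 0.12 with quantile normalization, 0.016 with median centring, 0.074 with the mean of all probe sets and 0.10 with the 5S block. Pkm was at 0.033 with quantile normalization, Slc2a3 at -0.091 with the mean of all probe sets and Ldhb at -0.13 without the 3 arrays.

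For same-numbered samples of different groups, deviations from the group means had correlations from -0.33 to 0.29. For differently numbered ones these ran from -0.36 to 0.40. With 2 or 3 arrays per group the deviations are tied to one another. They cannot tell whether same-numbered samples were processed together. With the replicate block 0 probe sets passed in each comparison. Under it Hk1 was at -0.082 and Aldoc at 0.027 at 1 hr against control, and Hk1 at 0.40 and Aldoa at 0.18 at 2 hr against 1 hr.

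Leaving out each array in turn, the change at 2 hr against control ran from -0.36 to 0.71 for Hk1, -0.45 to 0.67 for Aldoa and -0.85 to 0.35 for Aldoc. At 1 hr against control it ran from -0.18 to 0.61 for Slc2a1, -0.15 to 0.14 for Slc2a3, -0.30 to 0.77 for Hk1, -0.28 to 0.84 for Aldoa, -0.37 to 0.32 for Aldoc, -0.74 to 0.042 for Pkm and -0.14 to 0.40 for Ldhb. For the exposed groups together it ran from -0.0031 to 0.24 for Slc2a3, -0.33 to 0.74 for Hk1, -0.37 to 0.75 for Aldoa and -0.58 to 0.18 for Aldoc. At 2 hr against 1 hr it ran from -0.29 to 0.18 for Hk1, -0.39 to 0.047 for Aldoa, -0.85 to 0.36 for Aldoc, -0.17 to 0.16 for Pgk1, -0.48 to 0.34 for Pkm and -0.079 to 0.42 for Ldhb.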
